A study of Mus musculus with 6 samples.

Results

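Of the 4557 autosomal regions that the authors listed as dynamic transcription factor peaks, 450 were at least 1300 bp wide, which was 9.87% (exact binomial 95% interval 9.02% to 10.8%). These wide regions were chosen by their width alone, taken as end minus start, so their widths are given as a description and without a test. The other 4107 autosomal regions were narrower and served as the comparison. The list came from ChIP-seq, in which DNA bound by a protein is pulled down with an antibody and sequenced, of mouse bone marrow cells of the Lin-Sca-1+c-Kit+ phenotype that carried the MLL-AF9 fusion and had been transformed in culture. The series holds 6 libraries, 1 in each group: C/EBPα untreated, C/EBPα with an LSD1 inhibitor, PU.1 untreated, PU.1 with an LSD1 inhibitor, LSD1 untreated, and an untreated input without antibody. All 6 came from cells with the fusion, grown with 3 cytokines: 10 ng/mL of interleukin-3, 10 ng/mL of interleukin-6, and 20 ng/mL of stem cell factor (SCF). The labels name GSK-LSD1 as the inhibitor used in the study, without a dose or duration for these libraries. They do not say whether the cells were 1 line or several cultures, and the identity of the cells could not be checked against markers, since the list holds positions alone.

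PU.1 and C/EBPα are transcription factors that bind enhancers of myeloid genes and drive the differentiation of granulocytes and monocytes. PU.1 belongs to the ETS family and C/EBPα is a basic leucine zipper protein, and both often occupy the same enhancers. LSD1 is a histone demethylase that removes methyl groups from lysine 4 of histone H3, a mark of enhancers and promoters, and in leukaemias with MLL fusions its inhibition is known to promote differentiation. A listed region is the stretch that was written as 1 interval. Its width depends on the peak caller, and on any joining of close intervals, as well as on the binding. The width rule did not use the positions of other regions, but it was chosen when grouped regions were known to be wider.

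The list is 1 combined set without signal, factor, direction of change or library, so which of the wide regions gained or lost PU.1 or C/EBPα on LSD1 inhibition was not separated here. No group had a replicate. The positions are on mouse build mm9. The genes, exons and sequence at these positions were not analysed here.

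The wide regions formed the long upper tail of the width distribution. Their median width was 1600.5 bp, the central 50% lay between 1408 and 2002 bp, and the mean was 1771 bp ± 525 (SD over 450 regions). The narrower regions had a median of 938 bp and a mean of 926 bp ± 176 (SD over 4107 regions). Of the wide set, 175 regions (38.9%) were under 1500 bp, 114 (25.3%) reached 2000 bp, 36 reached 2500 bp and 12 reached 3000 bp. Though they were 9.87% of the autosomal regions, the wide ones held 17.3% of the covered bases, 797 kb against 3804 kb in the narrower ones.

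The counts ran on through the threshold without a break. There were 230 regions from 1200 to 1299 bp, 108 from 1300 to 1399 bp and 67 from 1400 to 1499 bp. The decline then flattened, with 20 regions at 1800 to 1899 bp, 17 at 1900 to 1999 bp and 21 at 2000 to 2099 bp. The next bins of 100 bp, up to 2799 bp, held 15, 19, 14, 9, 3, 5 and 9 regions. These are small counts. The 3 members nearest above the threshold measured 1300 bp (chromosome 19, 30818209 to 30819508), 1302 bp (chromosome 5, 81465482 to 81466783) and 1303 bp (chromosome 9, 45821930 to 45823232). The regions nearest below it measured 1297 bp on chromosome 11 (54277970 to 54279266), and 1296 bp on chromosome 5 (151108617 to 151109912) and on chromosome 15 (12075886 to 12077181). Regions on either side of the threshold were thus a few bases apart in width.

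**Figure D1:**
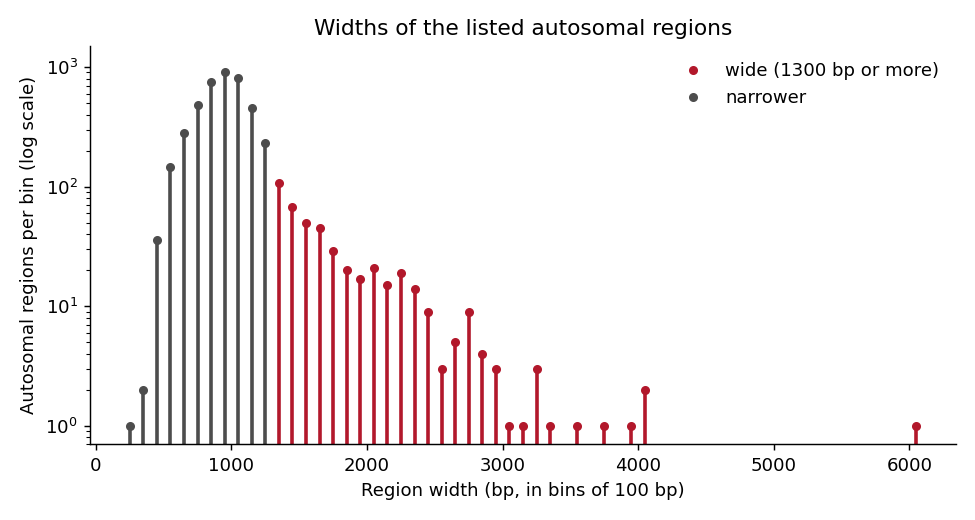
Number of listed autosomal regions (log scale) in bins of 100 bp of width, with the 450 wide regions in red and the 4107 narrower ones in grey. The counts rise to a peak of 912 regions between 900 and 999 bp, then decline steeply to 1300 bp and more slowly beyond it. There are 21 regions between 2000 and 2099 bp and 1 region at 6080 bp.

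The widest regions were spread over many chromosomes. The 20 widest measured 2796 to 6080 bp and lay on 12 autosomes. The single widest, 6080 bp on chromosome 8 from 124345730 to 124351809, stood 146 kb from the nearest listed region. The second, 4053 bp on chromosome 2 from 5690274 to 5694326, had a region of 1441 bp at 30.5 kb and 10 listed regions within 1 Mb. The third, 4010 bp on chromosome 2 from 115598195 to 115602204, had its nearest region 886 kb away. Very wide regions thus occurred both among others and nearly alone.

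The regions ranked 11th to 20th by width had closer company than the 10 above them. In this set 5 of 10 had another listed region within 12.5 kb, measured from edge to edge, against 2 of 10 among the 10 widest, though 10 regions are too few to compare. The 11th lay on chromosome 1 from 173339941 to 173343085 (3145 bp), with its nearest region at 37.7 kb. The 12th, on chromosome 17 from 73185067 to 73188152, measured 3086 bp. The 13th lay on chromosome 15 from 10863283 to 10866266 (2984 bp), and its neighbour at 12.0 kb was itself wide, at 1595 bp. The 3 lay on different chromosomes, and their distances to a neighbour ranged from 12.0 to 100.4 kb.

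Chromosome 7 held the 14th, 2945 bp from 125941404 to 125944348, and the 17th, 2816 bp from 34684572 to 34687387, which had a region of 801 bp only 1.79 kb away. The 15th, on chromosome 1 from 36611084 to 36614018, measured 2935 bp and had its neighbour at 8.77 kb. The 16th, on chromosome 10 from 94784416 to 94787262, measured 2847 bp and had 15 listed regions within 1 Mb. Of the 4 regions just named, 3 had a neighbour at 14.8 kb or less. The 18th was on chromosome 1 from 4402472 to 4405277 (2806 bp), 2.27 kb from a region of 1183 bp. The 19th was on chromosome 3 from 100833209 to 100836009 (2801 bp), 1.29 kb from a region of 986 bp. The 20th was on chromosome 15 from 98218057 to 98220852 (2796 bp). Among the 20 widest, the nearest region measured 747 to 1595 bp with a median of 995 bp, and 3 of these nearest regions were themselves wide.

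Wide regions had a close neighbour more often than narrower ones. Among the 450 wide regions, 73 (16.2%, Wilson 95% interval 13.1% to 19.9%) had another listed region within an edge-to-edge gap of 12.5 kb, against 442 of 4107 narrower regions (10.8%, 9.85% to 11.7%) and 11.3% of all autosomal regions. The difference was 5.46 percentage points (Newcombe 95% interval 2.19 to 9.26). These intervals cover counting error only and treat regions as independent, which neighbouring regions are not, so they are too narrow. That grouped regions in this list are wider than lone ones was known when the wide regions were chosen, so the difference restates that pattern and is not further evidence for it.

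The difference appeared at gaps from 5 kb to 100 kb. Within 5 kb, 7.78% of wide and 4.97% of narrower regions had another region, and the difference of 2.81 points had an interval of 0.56 to 5.73. It was 7.72 points at 25 kb (3.68 to 12.1) and 8.92 points at 50 kb (4.24 to 13.7). At 100 kb, where 48.8% of all autosomal regions had another, 54.7% of wide regions did, and the difference was 6.48 points (1.61 to 11.3). Within 2 kb it was not resolved: 13 of 450 wide and 70 of 4107 narrower regions had another, a difference of 1.18 points with an interval of -0.09 to 3.21. The smallest gap beside a wide region was 1020 bp and that beside a narrower one 1003 bp. No gap in the autosomal list was shorter, so the counts within 2 kb cover only gaps from 1003 bp up. Whether closer intervals had been joined into wider ones when the list was made is not known and was not tested.

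**Figure D2:**
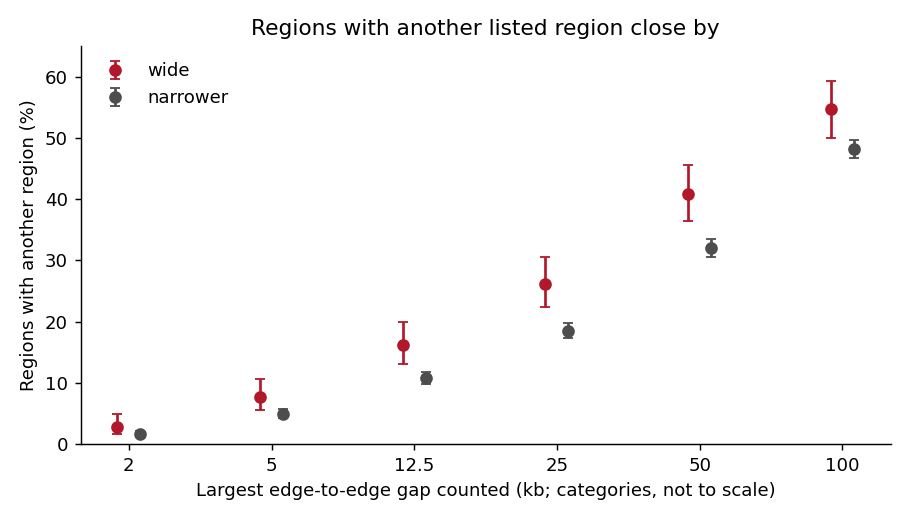
Percentage of wide (red, n = 450) and narrower (grey, n = 4107) regions with another listed region within the gap on the x axis, in kb, with Wilson 95% intervals. The wide regions lie higher at each gap shown, 16.2% against 10.8% at 12.5 kb, and the intervals overlap at 2 and 5 kb.

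The regions of 2000 bp or more carried most of this difference. Among these 114 regions, 30 (26.3%, 19.1% to 35.1%) had another within 12.5 kb, 15.6 points more than the narrower regions (interval 8.27 to 24.4). From 1500 to 1999 bp the share was 14.9% (24 of 161) and from 1300 to 1499 bp it was 10.9% (19 of 175), about that of the narrower regions. Combined, the 336 wide regions under 2000 bp had a share of 12.8% (9.64% to 16.8%), 2.04 points above the narrower regions, with an interval of -1.27 to 6.14 that included 0. Regions of 2000 bp or more differed from these 336 by 13.5 points (5.27 to 22.8). The 1300 bp limit therefore marked no step in this measure. Below it the share was 8.33% under 700 bp, 7.07% from 700 to 799 bp and 9.92% from 800 to 899 bp. It was 11.7% from 900 to 999 bp, 11.3% from 1000 to 1099 bp and 14.0% from 1100 to 1299 bp. The class just below the limit thus had a higher share than the 10.9% just above it, with overlapping intervals (11.6% to 16.8% and 7.06% to 16.3%). The limit of 2000 bp used here was chosen after the values were seen.

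**Figure D3:**
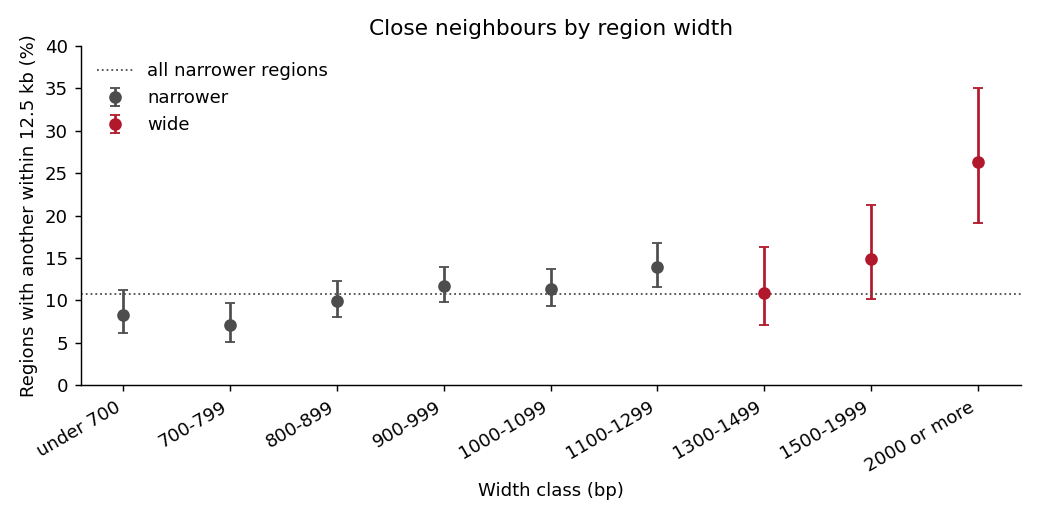
Percentage of autosomal regions with another listed region within 12.5 kb, by width class in bp, with Wilson 95% intervals. Wide classes are red, narrower ones grey, and the dotted line is the 10.8% of all narrower regions. The class of 2000 bp or more stands at 26.3%, while the class of 1300 to 1499 bp lies at 10.9%.

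The neighbours of wide regions were mostly of ordinary width. The nearest listed region was itself wide for 41 of 450 wide regions (9.11%, 6.79% to 12.1%) and for 430 of 4107 narrower ones (10.5%, 9.57% to 11.4%), against 10.3% of all autosomal regions. The difference was -1.36 points, with an interval of -3.88 to 1.79, so no excess of wide regions beside one another was resolved. The intervals of this paragraph treat regions as independent, though neighbours can each be the nearest region of the other. They are thus too narrow, and 1.79 points is not a firm upper limit. Within 12.5 kb, 8 of the 73 nearest regions of wide ones were wide (11.0%), against 63 of 442 for narrower ones (14.3%), a difference of -3.29 points (-9.68 to 6.37). The neighbours of wide regions at that distance had a median width of 1040 bp (986 to 1103), and those of narrower regions 991.5 bp (963 to 1024). For the 114 regions of 2000 bp or more, 8 had a wide nearest region (7.02%), and the nearest region had a median width of 930 bp (880 to 977).

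Counted as pairs of consecutive regions, the same values took this form. Of 279 pairs with a gap of at most 12.5 kb, 70 (25.1%) held 1 wide region, 5 (1.79%) held 2 and 204 held none. Of all 4538 consecutive pairs on the autosomes, 810 (17.8%) held 1 wide region and 44 (0.97%) held 2. Close pairs that involved a wide region were thus mainly pairs of a wide and a narrower one. Most wide regions with a close neighbour had it on 1 side only, 66 regions against 7 with one on both sides, and among narrower regions 406 and 36.

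Chains of regions joined by gaps of at most 12.5 kb numbered 236, and 67 of them (28.4%) held a wide region. No expected share of chains was computed. In 62 of the 67 chains the wide region was the only one, as is likely for short chains when 9.87% of all autosomal regions are wide. The exceptions were 5 chains, 4 with 2 wide regions and 1 with 3. The chain with 3 lay on chromosome 10 from 59715032 to 59745974, spanned 30.9 kb and held regions of 1352, 1778, 1624 and 893 bp in order along the chromosome. On chromosome 14, regions of 2354 and 1307 bp stood 1.94 kb apart, from 31064346 to 31069948, the shortest of the 5 spans at 5.60 kb. On chromosome 5, from 93413506 to 93430475, regions of 1668 and 1695 bp stood 1.38 kb apart, followed by one of 1096 bp at 11.1 kb. On chromosome 15, regions of 1595 and 2984 bp lay between 10849699 and 10866266. On chromosome 3, from 100833209 to 100862807, a region of 2801 bp opened and one of 3974 bp closed a chain of 5, with regions of 986, 593 and 943 bp between them. In the chains on chromosomes 10 and 5 the wide regions were consecutive. The chains on chromosomes 14 and 15 held only 2 regions each, both wide, so no other order was possible there.

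Wide regions also lay in slightly denser surroundings, which restates the grouping that was known when they were chosen. They had on average 5.94 ± 0.15 (standard error, n = 450 regions) other listed regions within 1 Mb of their centre, against 5.23 ± 0.05 (standard error, n = 4107) for narrower regions, a difference of 0.72 (95% interval 0.41 to 1.03). The median distance to the nearest region was 82.5 kb (61.8 to 100.4) for wide and 106.8 kb (100.6 to 114.2) for narrower regions, a difference of -24.3 kb (-46.2 to -5.34). At least 10 other regions within 1 Mb were found around 66 wide regions (14.7%) and 402 narrower ones (9.79%), and none around 5 (1.11%) and 145 (3.53%). When the regions of 2000 bp or more were left out, these differences were 0.66 (0.31 to 1.01) regions and -21.7 kb (-46.1 to -1.28). The share with a close neighbour then differed by 2.04 points (-1.27 to 6.14). That interval included 0 but also the 5.46 points of all wide regions, and the measures were not compared with one another. Regions near one another share their surroundings. The standard errors and intervals of this paragraph treat regions as independent, so they are too narrow.

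Within classes of local density the wide regions had the higher share of close neighbours in each of the 5 classes. In surroundings with 7 to 9 other regions within 1 Mb, 25 of 112 wide regions (22.3%) had another within 12.5 kb, against 128 of 873 narrower ones (14.7%), a difference of 7.66 points (0.49 to 16.5). In the other 4 classes the differences ran from 0.66 to 5.88 points with intervals that included 0. Weighted by the number of wide regions in each class, the difference was 4.27 points (0.78 to 7.77), against 5.46 without weighting. A close neighbour is itself counted within 1 Mb, so these classes are not independent of it. These classes were chosen after the data were seen.

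**Figure D4:**
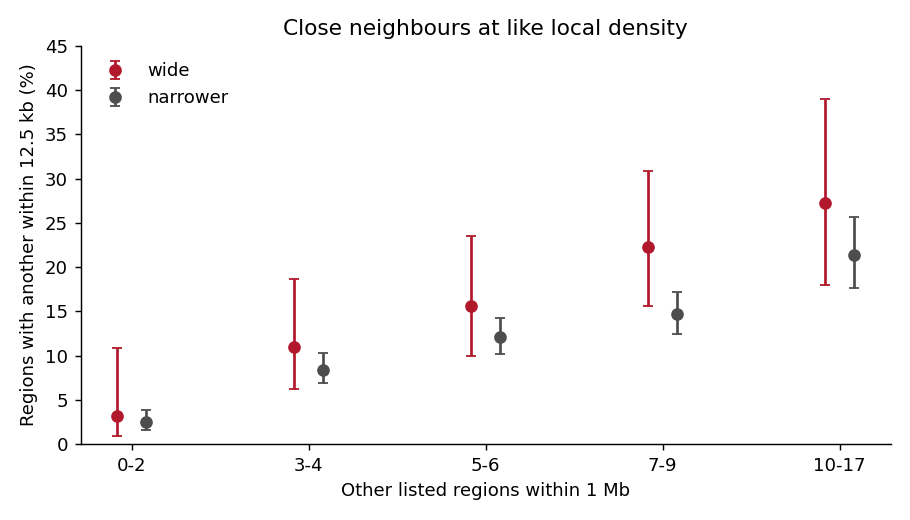
Percentage of wide (red) and narrower (grey) regions with another within 12.5 kb, in 5 classes by the number of other listed regions within 1 Mb, with Wilson 95% intervals. The percentage is higher in denser classes for both sets, from 3.17% to 27.3% in wide and from 2.52% to 21.4% in narrower regions.

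The extremes of density show how varied the surroundings of wide regions were. A region of 1386 bp on chromosome 19, from 11840417 to 11841802, had 17 others within 1 Mb, the highest count among wide regions, yet its nearest one was 95.7 kb away. Next came 4 wide regions with 16 each, all on chromosome 3: those at both ends of the chain, a 1509 bp region (101116438 to 101117946) and another of 1763 bp (101446927 to 101448689). At the other end, a region of 1332 bp on chromosome 9 from 35477756 to 35479087 had no other within 1.63 Mb. A region of 1305 bp on chromosome 6 from 43604428 to 43605732 and one of 1913 bp on chromosome 5 from 128104454 to 128106366 stood 1309 kb and 1305 kb from the nearest. All 3 of these isolated regions were under 2000 bp, as were 336 of all 450 wide regions. Over the 450 wide regions, width and distance to the nearest region had a Spearman's rho of -0.09, and width and the number of regions within 1 Mb one of 0.08. Over all 4557 autosomal regions the values were -0.09 and 0.08, a weak relation across regions that share 1 list and are not replicates.

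All 19 autosomes held wide regions, between 8 and 40 each. The share of listed regions that were wide was lowest on chromosome 18, with 8 of 144 (5.56%, exact 95% interval 2.43% to 10.7%), and on chromosome 16, with 11 of 170 (6.47%, 3.27% to 11.3%). It was highest on chromosome 8, with 30 of 211 (14.2%, 9.80% to 19.7%), followed by chromosome 5 with 40 of 292 (13.7%, 9.97% to 18.2%) and chromosome 17 with 23 of 174 (13.2%, 8.57% to 19.2%). Neighbours in this order did not differ beyond these intervals, and 18 of the 19 intervals held the overall 9.87%, the exception being that of chromosome 5. Relative to the position of the last region, wide regions numbered from 0.90 per 10 Mb on chromosome 18 to 2.78 per 10 Mb on chromosome 19.

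**Figure D5:**
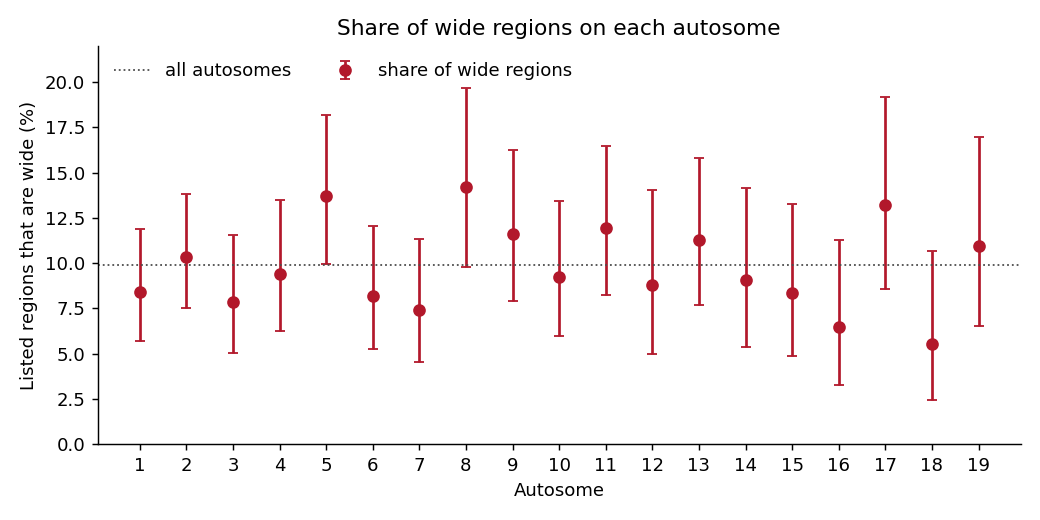
Percentage of the listed regions on each autosome that were wide, with exact binomial 95% intervals. The dotted line is the 9.87% over all autosomes. The percentages run from 5.56% on chromosome 18 to 14.2% on chromosome 8, and the intervals overlap.

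The widths within the wide set are given by autosome as a description, with no test, since width chose the regions. On chromosome 1, 15 of 29 wide regions (51.7%) reached 2000 bp, and the median wide width was 2015 bp. On chromosome 13, 1 of 29 did (3.45%), with a median of 1546 bp. The share on the autosomes other than chromosome 1 lay between 3.45% and 37.5%, and the median wide width between 1410.5 and 1914 bp. This pair of chromosomes was chosen after the values were seen. The share of wide regions with another within 12.5 kb was above that of narrower regions on 13 of the 19 autosomes. It was highest on chromosome 19 (6 of 17, 35.3%, against 14.5% of narrower regions) and chromosome 15 (5 of 16, 31.3%, against 7.43%). None of the 8 wide regions on chromosome 18 had one, against 7.35% of narrower regions. The share was also below that of narrower regions on chromosomes 2 (7.5% against 10.1%) and 6 (4.35% against 10.9%). The same held on chromosomes 8 (10% against 12.2%), 10 (12.5% against 13.6%) and 16 (9.09% against 10.1%). Each autosome held few wide regions with another within 12.5 kb, at most the 10 on chromosome 5.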

How the data were processed

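The authors deposited 1 list of intervals for the whole series, with 3 columns (chromosome, start, end) and no signal, score or sample. Per the submitters' processing notes, Bowtie2 2.2.2, bedtools and build mm9 were used, with no role stated. The peak caller, its threshold, the pooling of libraries and what made a region dynamic are, like the read depth, not given in the sources used here. There were 0 columns of values per sample.

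Starts were converted to 1-based positions for printing. Gaps to the nearest region, counts within 1 Mb and chains were computed in Python 3.11.15 with numpy 2.4.6, pandas 2.3.3 and scipy 1.17.1. The gaps, the counts and the class of the nearest region were tested on simulated lists. The Newcombe and median intervals were tested on independent simulated draws, and the chains were not tested. Shares carry Wilson or exact 95% intervals, their differences Newcombe intervals, medians order-statistic intervals, combined in quadrature for a difference of medians, and the difference of mean counts a normal interval. No test over samples exists with 1 library per group. Chromosome X, with 9 wide regions of 112, was an alternative.

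The members, measures and limits were chosen with earlier results of these data known. Regions named are the 20 widest, the 3 on each side of the threshold, chains with at least 3 wide regions (chains with 2 were added afterwards), the 3 with the most regions within 1 Mb (5 with ties) and the 3 with the longest gap to another region. Motif, gene and sequence measures needed an mm9 genome and were not run, since the gene and promoter tables at hand are on GRCm38.p6.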

Additional observations from a re-analysis of the deposited data

How the results depend on the processing

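The 3 differences whose interval excluded 0 (close neighbours, regions within 1 Mb, gap to the nearest region) were recomputed 85 times, and 0 of these values had the opposite sign. For each difference, 19 of the recomputations left out 1 autosome. They share most of their regions and restate a known pattern, so the count of 85 is not independent support. The other 55 values belong to counts, shares or a difference whose interval included 0. With another width limit the number of wide regions was 680 at 1200 bp, 275 at 1500 bp and 114 at 2000 bp. The limit itself makes such shifts. The highest share on an autosome was 20.7% at 1200 bp and 4.36% at 2000 bp, and the autosome that held it changed. At 1300 bp it was chromosome 8. At 2000 bp it was chromosome 1, with 15 of 344 regions, against 5 of 211 on chromosome 8. The difference in close neighbours was 15.4 points at a limit of 2000 bp and 2.04 points, with an interval that included 0, when regions of 2000 bp or more were not counted as members, which was chosen after seeing the data. In the other 30 alternatives it lay within the interval of 5.46 points, among them 4.73 to 6.25 with each autosome left out in turn and 4.26 after intervals less than 5000 bp apart were merged. A merged interval was given the summed width of its parts, not end minus start. Merging thus made close regions wide by itself (531 wide regions, with 116 merged), so the value of 4.26 is not separate from grouping. The difference in counts of surrounding regions was 0.39 within 250 kb and 1.06 within 2.5 Mb, where the window sets the scale. The share of wide nearest regions differed by -2.48 to 0.68 points over 26 alternatives, and 0 of their intervals excluded 0. The alternatives that weight by density or autosome were also added after seeing the data. No paired analysis was possible because there is 1 library a group and no value of any library in the list. For the same reason no library could be left out, and how depth limits which regions were listed, or how wide, is unknown here.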
